A study of Caenorhabditis elegans with 8 samples.

Results

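The col genes are the largest named family of cuticle collagens in Caenorhabditis elegans. All transcripts whose gene symbol begins with col- were taken, apart from 5 genes (col-7, col-19, col-62, col-119 and col-137) whose transcripts mark the adult cuticle, which left 124 of the 14396 transcripts in the count tables. Each of the 124 stands for 1 gene. The reference annotation holds 159 col genes, of which 129, the 5 left out included, were analysed here. Of the 124, 104 were listed for every group, 112 passed the filter on low counts and 12 did not. The 12 reached at most 14 counts in any library and at most 2.83 CPM (counts scaled to a common library total) in any group mean.

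Cuticle collagens are small secreted proteins built on repeats of glycine followed by 2 other residues, which wind into trimers and are crosslinked outside the cell. The epidermis lays down a new cuticle under the old one before each moult, and many collagen genes are transcribed in a pulse within that cycle, with sets that differ between larval stages and the adult. At L4, the last larval stage, worms approach the moult at which the adult cuticle replaces the larval one.

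RNA of whole worms of the Bristol strain was counted at L4 after growth at 22 °C. damt-1 encodes a protein related to methyltransferases that has been proposed to methylate adenine in DNA, and the labels name no allele. There were 8 groups: damt-1 P0, F1 and F2, which received 1.92 µM antimycin A, damt-1 untreated, wild type P0, F1 and F2 at the same dose, and wild type untreated. Antimycin A blocks complex III of the mitochondrial respiratory chain. It was dried onto the agar and left there until L4. The start of exposure is given once as the egg and once as the L1 larva. Exposure of earlier generations is not stated for F1 and F2, so P0, F1 and F2 are used as labels. Each group had 2 replicate libraries, for which nothing says that they came from separate cultures, so p-values measure the spread between these libraries, which may be technical.

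Library totals ran from 3541390 to 4365451 counts. The coefficient of variation fitted beyond counting noise was 2.18%, between libraries whose spread may be technical. The damt-1 transcript itself had 16 to 23.9 CPM in the 8 damt-1 libraries and 19.6 to 35.3 CPM in the 8 wild type libraries, and it did not pass the test between the untreated groups (log2 difference -0.03, edgeR adjusted p = 0.93). With the allele not given, this level does not check the genotype label. Over transcripts with under 0.2 counts per nucleotide, libraries of damt-1 P0, F1 and F2 differed from each other by a chi-square per degree of freedom of 1.54 to 1.67, and replicate libraries of 1 group differed by 1.48 to 1.65. The same figure was 1.5 to 1.59 between wild type F2 and F1 libraries, and 4.46 to 5.06 between either of them and wild type P0. The 3 treated damt-1 groups are therefore not counted as independent repeats, and neither are wild type F1 and F2. The 3 treated groups of a genotype also share its untreated libraries. All 6 epidermal marker genes were listed, and each of the 7 other tissues checked had listed markers. In bulk RNA, fewer cells of a type and less RNA per cell cannot be told apart.

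In damt-1 worms, antimycin went with higher levels of most col genes, and in wild type F1 and F2 it went with lower levels of most. In damt-1 P0 worms, 64 of 105 tested col genes rose and 4 fell against untreated damt-1 worms, where 8.41% of all tested transcripts rose and 5.68% fell (edgeR adjusted p under 0.05). In damt-1 F1, 65 of 106 rose and 3 fell, against 7.69% and 5.53% of all transcripts. In damt-1 F2, 65 of 105 rose and 3 fell, against 7.9% and 5.84%. The median log2 difference over the tested col genes was 0.51, 0.56 and 0.51 in P0, F1 and F2, beside -0.01, -0.00 and 0.00 over all transcripts. Of these genes, 35, 37 and 39 rose by at least 1 on the log2 scale in P0, F1 and F2, as 3.3%, 3.06% and 3.18% of all transcripts did. Without damt-1 P0 replicate 1, 1 member fell in place of 4, and without damt-1 untreated replicate 1, 2 fell.

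In wild type P0 worms, 15 of 111 tested col genes rose and 36 fell against untreated wild type, where 13% of all transcripts rose and 8.14% fell. In wild type F1, 16 of 111 rose and 76 fell, against 26.2% and 20.7% of all transcripts. In wild type F2, 18 of 112 rose and 69 fell, against 25.9% and 21%. The median log2 difference of the col genes was -0.10, -0.35 and -0.32 in P0, F1 and F2, beside 0.01, 0.03 and 0.03 over all transcripts. In P0, 24 members fell without wild type P0 replicate 2 or without wild type untreated replicate 1, and DESeq2 called 21 as fallen. With scaling factors taken only from transcripts under 0.2 counts per nucleotide, the median of all transcripts moved by -0.15 in F1 and -0.13 in F2. The col genes then had medians of -0.49 and -0.44 beside -0.12 and -0.10 over all transcripts.

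The untreated groups already differed. In untreated damt-1 worms, 69 of 106 tested col genes were lower and 15 were higher than in untreated wild type, where 20.3% of all transcripts were lower and 17.9% higher. The median log2 difference was -0.79 over the col genes and -0.00 over all transcripts, and 45 of the 69 were lower by at least 1 on the log2 scale, as were 8.3% of all transcripts. Summed over the 124 genes, the level was 14183 and 13784 CPM in the 2 untreated damt-1 libraries, and 22204 and 20712 CPM in untreated wild type. The 6 treated damt-1 libraries held 19041 to 20864 CPM. The wild type sums were 21463 and 20396 CPM in P0, 19045 and 17842 CPM in F1, and 18677 and 18663 CPM in F2. The untreated damt-1 sums lie below those of all other libraries. They were also the libraries with the fewest col genes at 100 CPM or more, at 54 and 55, against 69 to 74 in the others.

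**Figure D1:**
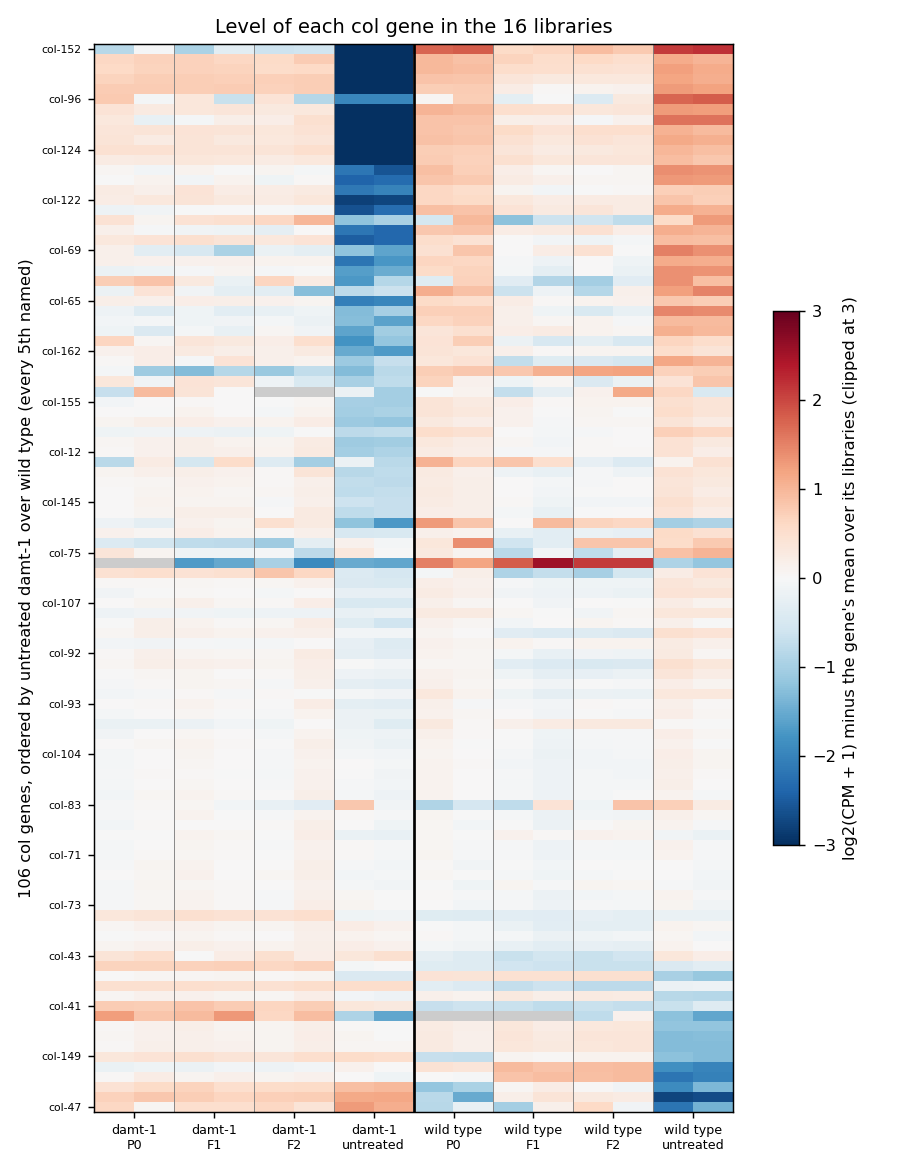
Level of the 106 col genes tested between the untreated groups (rows) in the 16 libraries (columns, 2 per group), as log2(CPM + 1) minus the gene's mean over its libraries; grey cells are libraries whose table does not list the gene. The genes at the top are low in the 2 untreated damt-1 libraries and near their mean in the 6 treated damt-1 libraries, and those at the bottom are low in untreated wild type.

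**Figure D2:**
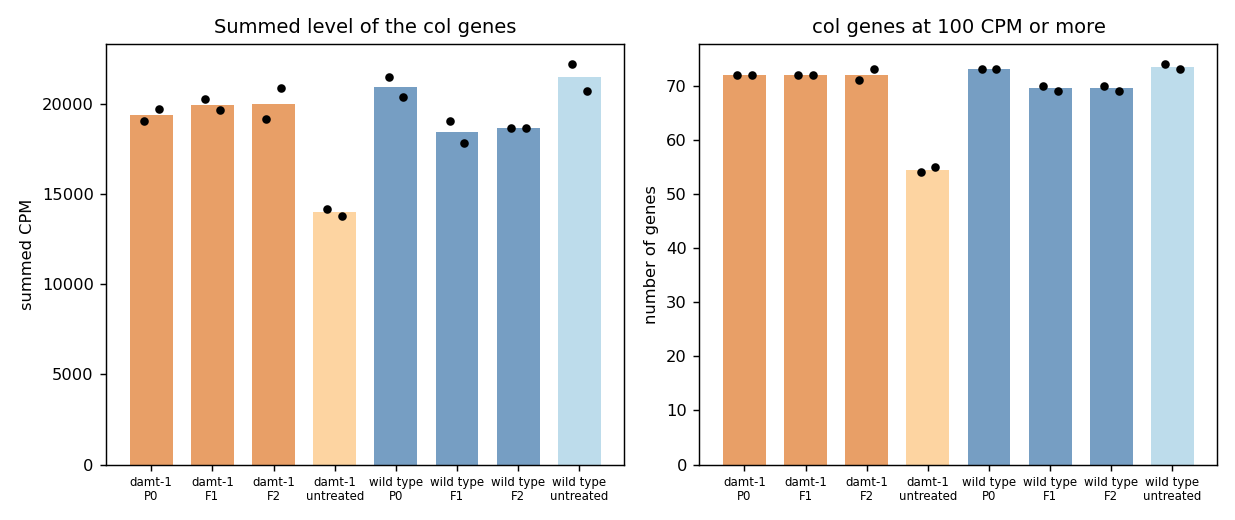
Summed CPM of the 124 col genes (left) and number of them at 100 CPM or more (right) by group; bars are means, points the 2 libraries. Untreated damt-1 has 14183 and 13784 CPM and 54 and 55 genes, the lowest values on both axes.

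The size of the deficit in untreated damt-1 worms varied between genes. With a limit chosen after the values were seen, 19 of the genes lower in untreated damt-1 were at under 10% of their untreated wild type mean, where that mean was at least 10 CPM. They were col-20, col-33, col-60, col-81, col-88, col-89, col-91, col-96, col-106, col-115, col-120, col-122, col-124, col-129, col-139, col-140, col-152, col-174 and col-178. Their group means summed to 2804, 2837 and 2799 CPM in damt-1 P0, F1 and F2, and to 207 CPM in untreated damt-1. In wild type the same sums were 3759, 2732 and 2674 CPM in P0, F1 and F2, and 4551 CPM in untreated worms. All 19 rose in damt-1 F1, with log2 differences of 2.21 to 6.02, and all 19 fell in wild type F1, with log2 differences of -2.20 to -0.46. Since the limit was set on the untreated libraries that both comparisons use, it favours these directions and itself sets the low untreated damt-1 sum. The values are a description. The 19 genes were spread over all chromosomes, with 7 on chromosome IV, 4 on III, 3 on V, 2 each on II and X, and 1 on I.

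col-139 had 232 and 240 CPM in damt-1 P0, 240 and 237 CPM in F1, 236 and 242 CPM in F2, and 5.66 and 3.3 CPM in untreated damt-1. In wild type it had 264 and 257 CPM in P0, 181 ± 8.02 CPM in F1 (mean and SD of both libraries), 179 and 180 CPM in F2, and 329 and 311 CPM in untreated worms. All treated damt-1 libraries lay far above the untreated damt-1 pair, and all treated wild type libraries lay below the untreated wild type pair. The log2 difference was 5.74 ± 0.11 in damt-1 F1 (SE, edgeR adjusted p = 6.7e-21) and -0.82 ± 0.05 in wild type F1 (SE, edgeR adjusted p = 6.9e-13). Between the untreated groups it was -6.16 ± 0.11 (SE, edgeR adjusted p = 1.3e-22).

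col-88 followed the same course, with 280 and 269 CPM in damt-1 F1, against 2.97 and 5.32 CPM in untreated damt-1. Wild type F1 had 277 and 251 CPM, against 377 and 354 CPM in untreated wild type. Its log2 differences of 6.02, 6.02 and 6.03 in damt-1 P0, F1 and F2 were the largest rises of any member in each of those comparisons. It fell in wild type F1 and F2 (log2 -0.47 and -0.52), while in wild type P0 it did not pass the test (log2 -0.14, edgeR adjusted p = 0.072).

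col-140 had 202 and 199 CPM in damt-1 F1, against 1.89 and 4.56 CPM in untreated damt-1. It had 181 and 178 CPM in wild type F1, against 297 and 275 CPM in untreated wild type. col-81 had 198 and 201 CPM in damt-1 F1, against 4.32 and 4.56 CPM in untreated damt-1. In wild type F1 it had 138 and 122 CPM, against 290 and 275 CPM in untreated worms. For both genes the groups of each pair did not overlap, with log2 differences of 5.93 ± 0.14 and 5.48 ± 0.12 in damt-1 F1, and -0.67 ± 0.05 and -1.12 ± 0.05 in wild type F1 (SE).

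col-152 differed from these in ending well below the wild type level. It had 7.24 and 13.3 CPM in damt-1 P0, 6.57 and 10.7 CPM in F1, 8.57 and 8.67 CPM in F2, and 0 and 0.253 CPM in untreated damt-1, which is 1 count over both libraries. In wild type it had 47.8 and 50.3 CPM in P0, 21 and 22 CPM in F1, 26.9 and 24.1 CPM in F2, and 62.2 and 66.3 CPM in untreated worms. Every damt-1 library lay below every wild type library. Damt-1 F1 held 66.6 times the untreated damt-1 level, with an exact 95% counting interval of 11.5 to 2670. It was lower in damt-1 than in wild type by a log2 difference of -2.27 ± 0.20 in P0, -1.30 ± 0.23 in F1 and -1.56 ± 0.23 in F2 (SE, edgeR adjusted p = 2.1e-09, 6.2e-05 and 5e-06). Further members lower in damt-1 P0 than in wild type P0 were col-20 (log2 -1.02 ± 0.06) and col-68, which averaged 48.3 CPM in damt-1 P0 and 96.7 CPM in wild type P0.

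Across both genotypes, 57 of the 105 col genes tested in both fell in wild type F1 and rose in damt-1 F1, 2 comparisons that share no library, as did 4.5% of all transcripts tested in both. These are 89.1% of the 64 that rose in damt-1 and 75% of the 76 that fell in wild type. None fell in both, 4 rose in both, and 3 rose in wild type and fell in damt-1, where 0.419%, 1.63% and 3.9% of all transcripts did. In P0 the count that fell in wild type and rose in damt-1 was 32 of 104, beside 2.79% of all transcripts, and in F2 it was 53 of 105, beside 4.66%. In all 3 generations at once, 30 of the 103 genes tested throughout fell in wild type and rose in damt-1, beside 2.21% of all transcripts. Ranked by the smallest of their 6 changes, the leading ones were col-96, col-33, col-61 and col-68.

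**Figure D3:**
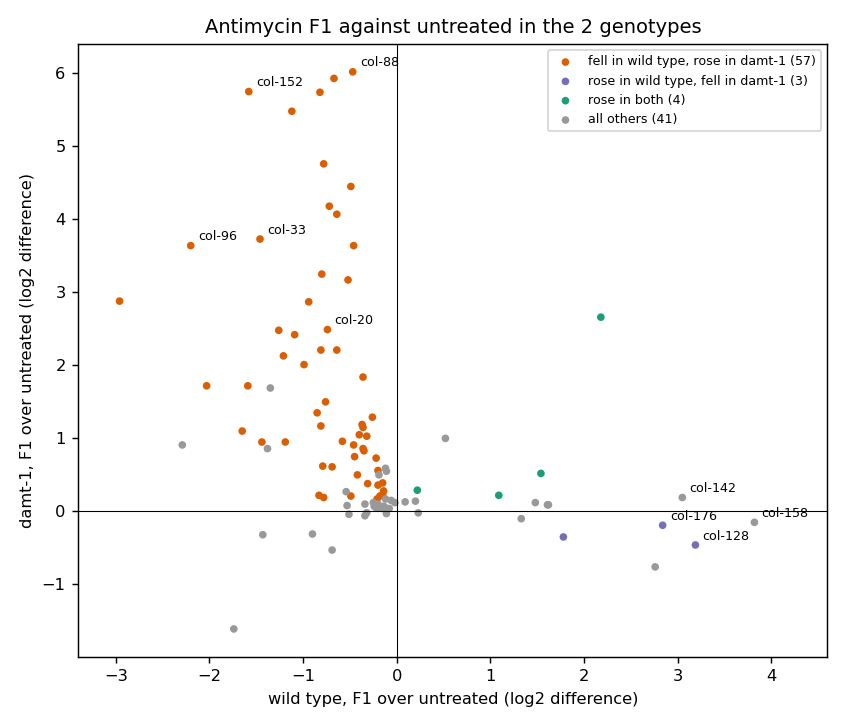
Log2 difference of F1 over untreated in damt-1 (vertical) against wild type (horizontal) for the 105 col genes tested in both; points are genes, coloured by the calls in both genotypes. The 57 genes that fell in wild type and rose in damt-1 fill the upper left, and col-128, col-176 and col-46 lie at the lower right.

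col-96 was a low-level gene, with 7.49 and 3.71 CPM in damt-1 P0, 5.2 and 2.09 CPM in F1, 5.54 and 1.73 CPM in F2, and 0.27 and 0.253 CPM in untreated damt-1. In wild type it had 4.14 and 7.19 CPM in P0, 2.97 and 3.85 CPM in F1, 2.71 and 4.96 CPM in F2, and 15.5 and 16.3 CPM in untreated worms. The treated libraries of the 2 genotypes overlapped, and the untreated pairs lay at the 2 extremes. The untreated damt-1 pair held 2 counts, and damt-1 F1 held 13.8 times that level (exact 95% counting interval 3.48 to 120). In wild type F1 the log2 difference was -2.20 ± 0.43 (SE, edgeR adjusted p = 0.0002).

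col-33 had 25.7 and 30.4 CPM in damt-1 F1, against 2.16 and 2.03 CPM in untreated damt-1. It had 30.2 and 30.8 CPM in wild type F1, against 83.7 and 84 CPM in untreated wild type. The F1 groups of both genotypes met at about the same level, with a log2 difference between them of -0.12 ± 0.16 (SE, edgeR adjusted p = 0.55). col-61 had log2 differences of 1.72 ± 0.20 in damt-1 F1 and -1.59 ± 0.13 in wild type F1, and col-68 had 0.95 ± 0.14 and -1.44 ± 0.09 (SE). Like col-33, both were lower in damt-1 P0 than in wild type P0, and neither passed the test between the F1 groups (edgeR adjusted p = 0.27 for col-61 and 0.091 for col-68).

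Further falls named by size in wild type were those of col-69 and col-75 in P0 and of col-186 and col-187 in F1 and F2. col-186 had 25.7 and 34 CPM in wild type F1, against 99.1 and 90.1 CPM in untreated wild type, and 42.7 and 58.1 CPM in damt-1 F1, against 20 and 26.9 CPM in untreated damt-1. The pairs did not overlap in either genotype. col-187 fell in wild type F1 and F2 (log2 -2.03 and -2.09) and rose in damt-1 P0, F1 and F2 (log2 2.56, 1.72 and 2.19). col-69 fell in wild type P0 (log2 -0.81 ± 0.22, SE) and rose in damt-1 P0 and F2 (log2 1.59 and 1.37), and in damt-1 F1 its log2 difference of 0.86 did not pass the test (edgeR adjusted p = 0.17). col-75 fell in wild type P0 (log2 -0.80 ± 0.25, SE) and did not pass the test in damt-1 P0, F1 or F2 (log2 0.07, -0.32 and -0.56).

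A small set went the other way. col-176, col-128 and col-46 rose in wild type and fell in damt-1 in all 3 generations, 3 of 103 beside 2.02% of all transcripts, a share near the background. col-176 had 162 and 168 CPM in damt-1 P0, 164 and 174 CPM in F1, 167 and 174 CPM in F2, and 201 and 186 CPM in untreated damt-1. In wild type it had 252 and 237 CPM in P0, 360 and 338 CPM in F1, 355 and 359 CPM in F2, and 51.1 and 46.2 CPM in untreated worms. In each genotype the treated libraries did not overlap with the untreated pair, by a wide margin in wild type and a narrow one in damt-1, while the treated groups of damt-1 overlapped each other, as did wild type F1 and F2. The rise in wild type F1 was 2.84 ± 0.06 on the log2 scale (SE, edgeR adjusted p = 2.6e-20). The fall in damt-1 F1 was -0.19 ± 0.06 (SE, edgeR adjusted p = 0.026), and DESeq2 did not call it (adjusted p = 0.13).

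col-128 had 72.4 and 79.3 CPM in damt-1 P0, 75.3 and 70.7 CPM in F1, 74.3 and 75.7 CPM in F2, and 99 and 101 CPM in untreated damt-1. In wild type it had 25.1 and 15.1 CPM in P0, 50.5 and 58.2 CPM in F1, 54.7 and 52.8 CPM in F2, and 5.77 and 6.13 CPM in untreated worms. Every damt-1 library was above every wild type library, and the wild type groups stood in the order untreated, P0, then F1 and F2 together. The log2 difference was -0.46 ± 0.10 in damt-1 F1 and 3.19 ± 0.19 in wild type F1 (SE, edgeR adjusted p = 0.0016 and 1.4e-12).

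col-46 showed the same order at a similar level with smaller log2 differences, with 83.8 and 75.1 CPM in damt-1 F1, against 98.7 and 103 CPM in untreated damt-1. It had 22.8 and 26.4 CPM in wild type P0, 54.7 and 60.7 CPM in wild type F1, and 13.4 and 19.8 CPM in untreated wild type. Its fall in damt-1 F1 (log2 -0.35, edgeR adjusted p = 0.0084) was not called by DESeq2 (adjusted p = 0.10). col-149 and col-103 rose in wild type F1 (log2 1.33 and 1.62) and were higher in untreated damt-1 than in untreated wild type (log2 1.79 and 1.36). In damt-1 they changed little: col-149 fell in P0 by 0.14 on the log2 scale and did not pass the test in F1 or F2, and col-103 had log2 differences of 0.04 to 0.09, none past the test.

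col-8, col-80, col-147 and col-160 rose in all 6 treated groups against their untreated group, and no member fell in all 6, beside 1.05% and 0.195% of all transcripts. col-80 had 191 and 192 CPM in damt-1 F1, against 134 and 134 CPM in untreated damt-1, and 252 and 253 CPM in wild type F1, against 92.6 and 82.1 CPM in untreated wild type. The log2 rise was 0.52 ± 0.05 in damt-1 F1 and 1.54 ± 0.05 in wild type F1 (SE). The corresponding rises of col-147 were 0.22 and 1.09, and those of col-160 were 0.29 and 0.22. col-8 stayed at or under 9.05 CPM in every library, with log2 rises of 2.66 ± 0.68 and 2.18 ± 0.53 (SE).

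col-143 was counted mainly in treated wild type worms. It had 84 and 102 counts in wild type P0, 57 and 51 in F1, 52 and 62 in F2, and 0 and 1 in untreated wild type. The treated and untreated pairs did not overlap, and the P0 level was 186 times the untreated one (exact 95% counting interval 33 to 7399). None of the damt-1 tables lists it, so it had at most 10 counts over the 4 libraries of each of those tables and was not tested there. In all, 15 members were not listed for damt-1, and apart from col-143 these had at most 4.36 CPM in any wild type group mean.

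col-158 had 0.821 and 1.05 CPM in damt-1 F1, against 1.08 and 1.01 CPM in untreated damt-1. It had 19.8 and 33.5 CPM in wild type F1, against 2.1 and 1.65 CPM in untreated wild type. The wild type groups were apart and the damt-1 groups overlapped. It rose by 3.82 ± 0.36 on the log2 scale in wild type F1 (SE, edgeR adjusted p = 9.4e-09), while in damt-1 F1 the log2 difference was -0.15 ± 0.79 (SE, edgeR adjusted p = 0.95). The damt-1 P0 table does not list col-158. In the fit, transcripts that a table does not list were set to 0 counts and left untested in the comparisons that need that table.

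**Figure D4:**
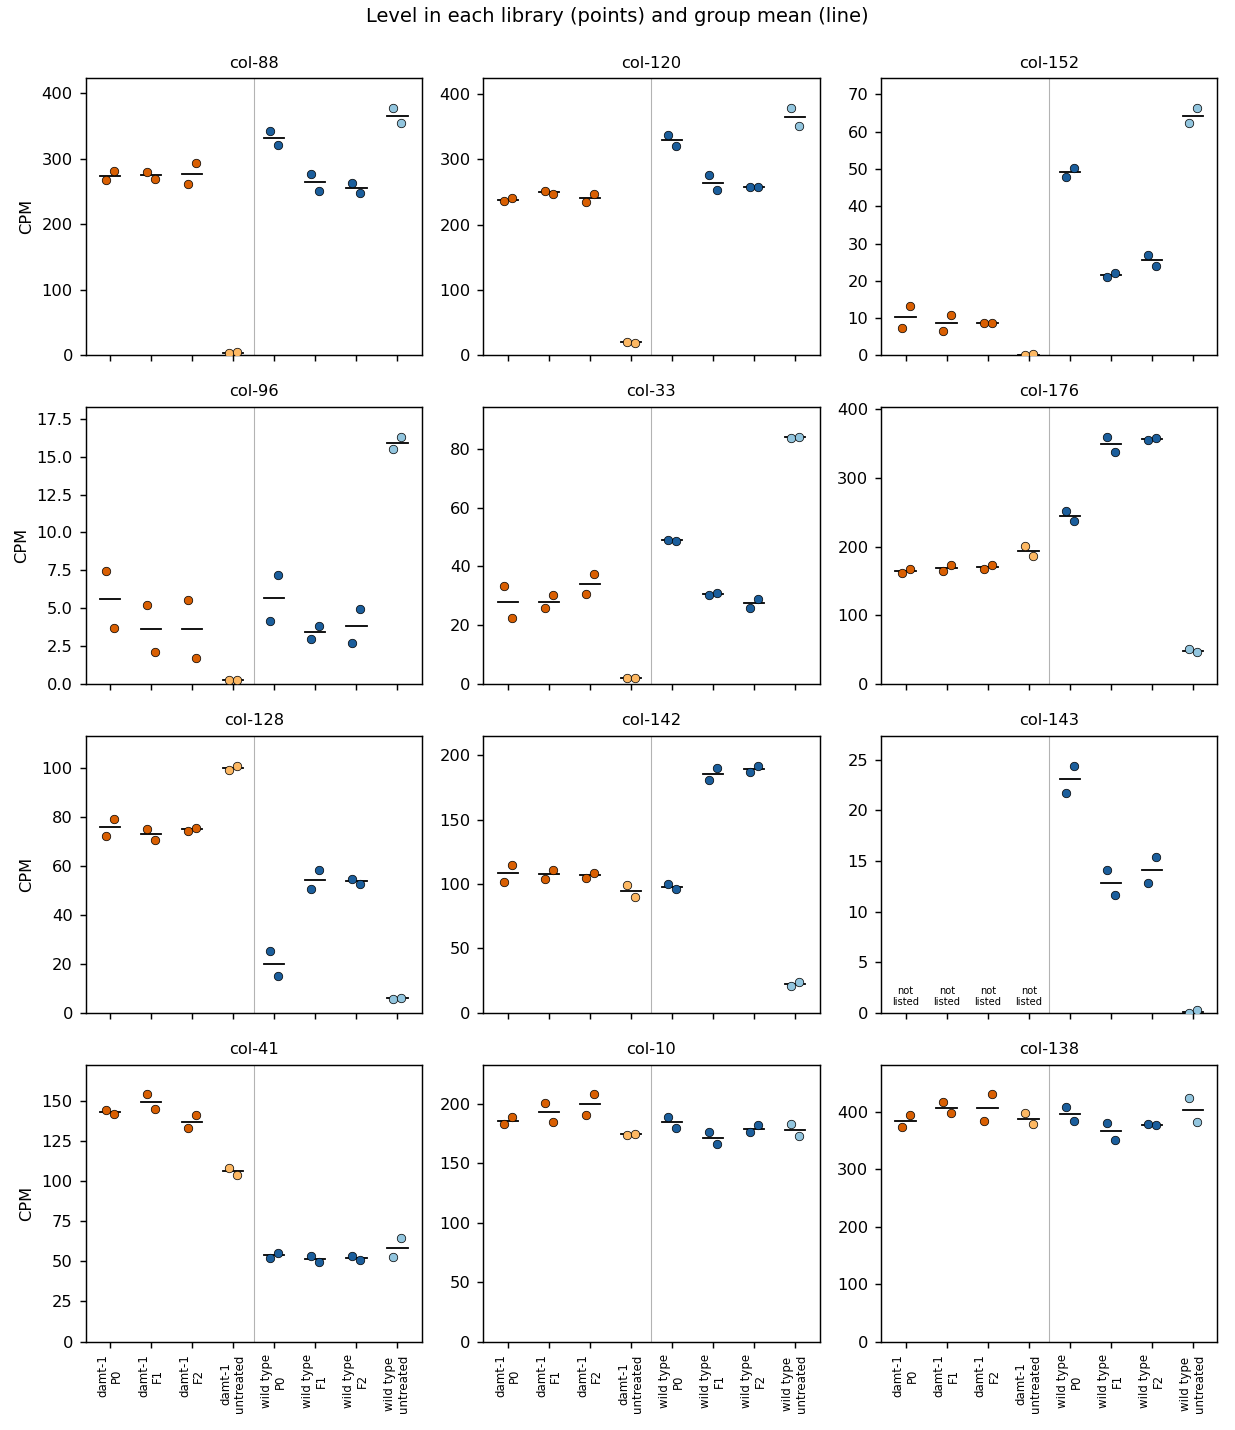
CPM of 12 named col genes in each library (points) with the group mean (line); treated groups stand left of their untreated group and damt-1 left of wild type. col-88, col-120, col-152, col-96 and col-33 are lowest in untreated damt-1, col-176, col-128, col-142 and col-143 are lowest in untreated wild type, and col-10 and col-138 keep close to the same level in all groups.

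Raised levels of col-10, col-13 and col-120 have been linked to longer life in worms. col-120 had 252 and 247 CPM in damt-1 F1, against 20.5 and 19.5 CPM in untreated damt-1, and 275 and 253 CPM in wild type F1, against 378 and 350 CPM in untreated wild type. No pair overlapped, and the log2 differences were 3.64 ± 0.09 in damt-1 F1 and -0.46 ± 0.05 in wild type F1 (SE, edgeR adjusted p = 1.6e-19 and 1.2e-08). Between damt-1 F1 and wild type F1 the difference was -0.08 ± 0.05 (SE, edgeR adjusted p = 0.19), a sign that turned to 0.16 with the scaling on sparsely counted transcripts. col-13 averaged 121 ± 2.11 CPM in damt-1 F1 and had 60.7 and 63.6 CPM in untreated damt-1 (SD, n = 2 libraries), and it had 96.8 and 93.1 CPM in wild type F1, against 146 and 138 CPM in untreated wild type. The groups did not overlap in either genotype. Its log2 differences were 0.96 ± 0.09 in damt-1 F1 and -0.58 ± 0.08 in wild type F1 (SE, edgeR adjusted p = 4e-08 and 1.6e-06).

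col-12 lies next to col-13 and encodes a near-identical protein, so reads may be split between them in ways the files do not show, and their separate values are uncertain. Collagen genes in general share repetitive coding sequence, and how reads that match several genes were counted is not given in the sources used here. col-12 had log2 differences of 1.15 ± 0.09 in damt-1 F1 and -0.36 ± 0.07 in wild type F1 (SE), and -1.30 ± 0.08 between the untreated groups. col-10 had 201 and 185 CPM in damt-1 F1, against 174 and 175 CPM in untreated damt-1, while the 6 treated wild type libraries had 166 to 189 CPM, against 183 and 173 CPM in untreated wild type. All its 16 values lay between 166 and 208 CPM. The difference passed the test in damt-1 F2 (log2 0.19, edgeR adjusted p = 0.02), where DESeq2 did not call it (adjusted p = 0.22), and in no other treated against untreated comparison.

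col-41, col-141 and col-142 are known as targets of the BMP-like pathway that sets body size in worms. col-41 was higher in all damt-1 groups than in wild type. It had 154 and 145 CPM in damt-1 F1 and 108 and 104 CPM in untreated damt-1, beside 53.2 and 49.8 CPM in wild type F1 and 52.7 and 64.4 CPM in untreated wild type. Every damt-1 library was above every wild type library. The log2 differences between the genotypes were 1.41 ± 0.08 in P0, 1.53 ± 0.08 in F1, 1.39 ± 0.08 in F2 and 0.84 ± 0.08 in untreated worms (SE, edgeR adjusted p = 3.7e-13, 7e-14, 7.8e-13 and 5.4e-09).

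col-141 ran the other way, with 3.01 and 4.45 CPM in damt-1 F1 and 2.97 and 4.56 CPM in untreated damt-1, beside 16.1 and 19.5 CPM in wild type F1 and 14.9 and 15.3 CPM in untreated wild type. It was lower in damt-1 by log2 -2.24 ± 0.32 in F1 and -1.99 ± 0.32 in untreated worms (SE), and it did not pass the test between treated and untreated worms of either genotype. Its chromosome neighbour col-142 had 104 and 111 CPM in damt-1 F1 and 99 and 89.7 CPM in untreated damt-1, beside 181 and 190 CPM in wild type F1 and 21 and 23.6 CPM in untreated wild type. In wild type P0 it had 99.8 and 96.4 CPM, between the untreated and F1 values. It rose by 2.13 ± 0.10 in wild type P0 and 3.05 ± 0.08 in wild type F1 on the log2 scale (SE, edgeR adjusted p = 7.1e-14 and 1.5e-18). In damt-1 F1 the difference of 0.19 ± 0.07 did not pass the test (SE, edgeR adjusted p = 0.082).

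Genes of this family were ranked in level per length of transcript, and the ranking is uncertain. At 1 or more counts per nucleotide, replicate libraries differed by less than counting noise. How reads that match several genes were counted is not given. The highest mean over the 16 libraries was that of col-138 at 462 CPM per kilobase, followed by col-38 at 409, col-73 at 403 and col-125 at 391. Over the 6 comparisons of treated with untreated worms, their log2 differences lay between -0.15 and 0.23. col-138 ran from 350 to 430 CPM over all libraries, and its log2 difference was 0.07 in damt-1 F1 (edgeR adjusted p = 0.55) and -0.14 in wild type F1 (edgeR adjusted p = 0.045). The lowest were col-74, col-183, col-44 and col-51, at 0.454 to 0.717 CPM per kilobase, none of which passed the filter.

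Members were counted far more densely than most transcripts: 34 of the 112 tested (30.4%) had at least 1 count per nucleotide, against 3.61% of all tested transcripts, and the highest member density was 1.81. At that density, replicate libraries differed by less than counting noise (chi-square per degree of freedom 0.214 to 0.552 over all such transcripts). The median absolute log2 difference in damt-1 F1 against untreated was 0.13 in these 34 members, 0.86 in the 45 at 0.2 to 1 count per nucleotide and 1.10 in the 27 below that. In wild type F1 it was 0.23, 0.64 and 1.41 in the same classes. Among the 34, col-88 had 1.11 counts per nucleotide as a mean over all libraries and a log2 difference of 6.02 in damt-1 F1. In untreated damt-1 it was sparsely counted, at a mean of 4.15 CPM. The part of read density in the size of these differences was not tested.

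**Figure D5:**
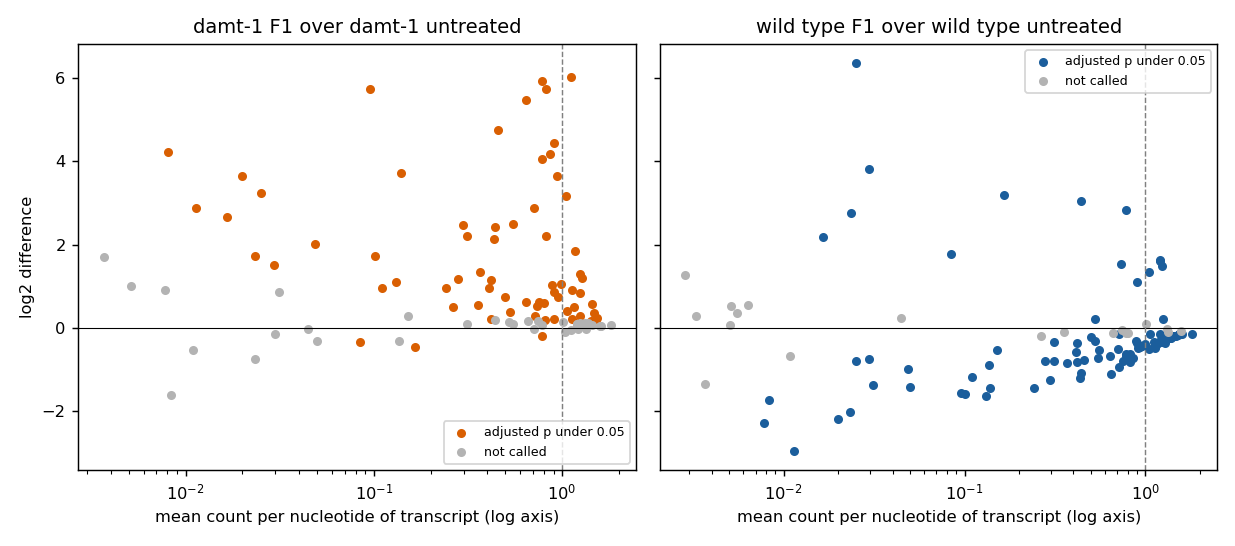
Log2 difference of F1 over untreated for each tested col gene against its mean count per nucleotide of transcript (log axis), in damt-1 (left) and wild type (right); coloured points passed edgeR adjusted p 0.05, and the dashed line marks 1 count per nucleotide. Right of the line most differences are near 0, with a median absolute value of 0.13 in damt-1 and 0.23 in wild type.

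Between damt-1 and wild type worms under antimycin, more col genes were lower in damt-1 P0 and more were higher in damt-1 F1 and F2, in numbers that changed with the scaling. In P0, 10 of 104 tested col genes were higher in damt-1 and 42 lower, against 15.5% and 20.2% of all transcripts. In F1, 44 of 105 were higher and 18 lower, against 24.6% and 26.9%, and in F2, 33 of 105 were higher and 15 lower, against 23.3% and 26%. With scaling on transcripts under 0.2 counts per nucleotide, the counts higher and lower were 16 and 29 in P0, 68 and 7 in F1, and 69 and 8 in F2. These counts have no share of all transcripts beside them. That scaling moved the median of all transcripts by 0.12, 0.24 and 0.22 in P0, F1 and F2. The col medians were then 0.00, 0.38 and 0.34, beside 0.14, 0.25 and 0.24 over all transcripts, and with the standard scaling they were -0.12, 0.14 and 0.11, beside 0.02, 0.01 and 0.02.

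These F1 and F2 counts also rest on single libraries. Without damt-1 F1 replicate 1 or without wild type F1 replicate 2, 23 members were higher in damt-1 F1 in place of 44, and without wild type F1 replicate 1, 11 were lower in place of 18. Without damt-1 F2 replicate 1, 51 were higher in F2 in place of 33. DESeq2 called 25 higher in F1. Among the named members, col-54, col-146 and col-153 were higher in damt-1 F1 by log2 1.33 ± 0.17, 1.31 ± 0.06 and 1.16 ± 0.05 (SE). col-153 had 326 and 318 CPM in damt-1 F1, against 139 and 149 CPM in wild type F1. In the other direction stood col-158, col-141, col-152 and col-176, the last at log2 -1.04 ± 0.05 in F1 (SE, edgeR adjusted p = 4.5e-14).

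The difference between the antimycin responses of the genotypes was tested directly, as the damt-1 log2 difference minus the wild type one. It passed the test for 71 of 104 col genes in P0, where 22% of all transcripts passed, for 90 of 105 in F1, where 40.4% passed, and for 86 of 105 in F2, where 40.1% passed. The response was more positive in damt-1 for 60, 78 and 74 of them in P0, F1 and F2, as it was for 10.5%, 18.6% and 18.6% of all transcripts, with medians over all tested members of 0.65, 0.81 and 0.81, beside -0.02 over all transcripts in each. The scaling on sparsely counted transcripts moved the median of all transcripts by 0.15 in F1 and 0.14 in F2, and gave the col genes medians of 0.96 and 0.95.

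Within wild type, the col genes differed between the P0 label and the F1 and F2 labels, which are not counted as independent repeats. In F1, 6 of 111 were higher and 63 lower than in P0, where 12.2% and 10.2% of all transcripts were, and in F2, 10 were higher and 52 lower, where 12.1% and 10.4% were. col-128, col-46 and col-142 were higher in F1 than in P0 by log2 1.45 ± 0.14, 1.23 ± 0.12 and 0.92 ± 0.06, and col-152, col-179, col-186 and col-54 were lower by -1.19 ± 0.17, -0.99 ± 0.26, -0.94 ± 0.14 and -0.93 ± 0.18 (SE). Within damt-1, none of 105 members passed the test in F1 against P0, and none of 104 in F2 against P0. Over all transcripts edgeR called 0 in both (0%), and DESeq2 called 0 as well. At an unadjusted p under 0.05 there were 3 members and 555 transcripts in F1, and 4 members and 573 transcripts in F2. The members' log2 differences ran from -0.84 to 0.52 in F1 and from -1.36 to 0.78 in F2.

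The 57 that fell in wild type F1 and rose in damt-1 F1 encode a median of 300 residues, and the 15 that rose in wild type F1 among those tested in both genotypes encode 305, beside 302 over all members. Of the members, 30 lie on chromosome V, 26 on IV, 21 on X, 20 on II, 16 on I and 11 on III. In the gene order of the WBcel235 annotation, 19 pairs of members are direct neighbours among protein-coding genes, and 18 pairs were tested. In damt-1 F1 against untreated both genes rose in 6 pairs and 1 of the 2 was called in 8, where 61.3% of tested members rose. Some pairs share a gene, and whether neighbours moved together was not tested. Between the untreated genotypes both were lower in 4 pairs, where 65.1% of tested members were lower, and in 2 pairs the neighbours went opposite ways. These were col-142 (log2 2.07) beside col-141 (log2 -1.99), and col-149 (log2 1.79) beside col-150 (log2 -2.34). col-178 and col-179 both rose in damt-1 F1 (log2 4.76 and 2.01).

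The other genes of the cuticle pathway were read from lists. Of 17 tested genes for collagen folding, processing and crosslinking, 4 rose and 1 fell in damt-1 F1, where 7.69% of all transcripts rose and 5.53% fell, and 1 rose and 11 fell in wild type F1, where 26.2% rose and 20.7% fell. The 1 fall in damt-1 F1 is at the background. The peroxidase gene mlt-7, needed for moulting and cuticle crosslinking, averaged 205 ± 9.43 CPM in damt-1 F1 and 108 ± 4.92 CPM in untreated damt-1 (SD, n = 2 libraries each). Its wild type means were 145 ± 8.06 CPM in F1 and 220 ± 9.72 CPM in untreated worms. It rose by 0.93 on the log2 scale in damt-1 F1 and fell by 0.61 in wild type F1. nas-7, an astacin protease gene, and doxa-1, the maturation factor of the dual oxidase, moved the same ways, by 1.71 and 0.91 in damt-1 F1 and by -1.19 and -0.72 in wild type F1. The peroxidase gene skpo-1 rose in damt-1 F1 (log2 2.56) and had a log2 difference of -0.40 in wild type F1 (edgeR adjusted p = 0.12), and skpo-2 fell in wild type F1 (log2 -0.79) and had 0.11 in damt-1 F1 (edgeR adjusted p = 0.29).

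Of 14 tested moulting genes, 1 rose and 5 fell in damt-1 F1, and 3 rose and 8 fell in wild type F1. Against the same shares of all transcripts, the rises in both genotypes are near the background and the falls are above it in number. nas-36, a protease gene needed to shed the old cuticle, was the 1 that rose in damt-1 F1 (log2 0.69). It fell in wild type F1 (log2 -1.03). The genes qua-1, mlt-10 and ptr-4 were among the 5 that fell in damt-1 F1. Of 13 tested regulators of the epidermis, 1 rose in damt-1 F1 and none fell, counts near or under the background shares. In wild type F1, 1 rose and 4 fell, where 26.2% and 20.7% of all transcripts did. The rise is under its share and the falls are somewhat above theirs. The 1 that rose in damt-1 F1 was bed-3, a zinc-finger gene needed for moulting, at log2 0.61. It fell in wild type F1 at log2 -0.70. The regulators next by adjusted p in damt-1 F1, nhr-85, myrf-1 and nhr-25, did not pass the test.

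Of 19 tested cuticle collagens with other names (the dpy, rol, sqt and related genes), none rose and 5 fell in damt-1 F1, and 8 rose and 5 fell in wild type F1, where the 5 falls are near the background of 20.7%. In untreated damt-1, 10 of them were higher than in untreated wild type and none lower, beside 17.9% and 20.3% of all transcripts. dpy-7, a collagen of the cuticle furrows, averaged 313 ± 5.71 CPM in damt-1 F1 and 357 ± 12.4 CPM in untreated damt-1, beside 231 ± 1.63 CPM in wild type F1 and 79.1 ± 1.64 CPM in untreated wild type (SD, n = 2 libraries each). dpy-2 and dpy-8 went with it, with log2 differences between the untreated genotypes of 2.22 and 2.11. Of 8 tested genes of the apical matrix that precedes the cuticle, 2 fell in damt-1 F1, 6 rose in wild type F1, and 6 were higher in untreated damt-1, beside 5.53%, 26.2% and 17.9% of all transcripts, among them lpr-3 (log2 1.85) and noah-2 (log2 1.60). Like col-176 and col-128, the genes dpy-2, dpy-7, dpy-8 and lpr-3 fell in damt-1 F1 and rose in wild type F1.

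All 5 adult col genes set apart by the rule rose in damt-1 F1 and fell in wild type F1, and all 5 were lower in untreated damt-1. Their summed level was 243 to 267 CPM in the 6 treated damt-1 libraries, 0.54 and 1.01 CPM in untreated damt-1, 123 to 262 CPM in the 6 treated wild type libraries, and 414 and 416 CPM in untreated wild type.

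Markers of several tissues moved with these groups. The 6 epidermal markers, dpy-7 and rol-6 among them, summed to 1049 to 1124 CPM in treated damt-1 libraries, 1127 to 1174 CPM in untreated damt-1, 677 to 869 CPM in treated wild type and 540 to 574 CPM in untreated wild type. Untreated damt-1 thus had the highest epidermal sum beside the lowest col sum, and 4 of the 6 markers were higher there than in untreated wild type. The largest differences in CPM were those of dpy-7, itself a cuticle collagen (357 against 79.1 CPM), and wrt-10 (321 against 75.9 CPM). Neither rol-6 nor ajm-1 passed the test between the untreated groups. The 3 listed of 5 pharynx markers summed to 251 to 297 CPM in treated damt-1, 152 to 161 CPM in untreated damt-1, 329 to 522 CPM in treated wild type and 256 to 297 CPM in untreated wild type. The 4 listed of 6 germ line markers summed to 472 to 528 CPM in treated damt-1, 651 to 659 CPM in untreated damt-1, 968 to 1142 CPM in treated wild type and 733 to 773 CPM in untreated wild type. None of the listed markers of these 3 lists was at 0 in all libraries of a group. All 6 sperm markers summed to 169 to 177 CPM in treated damt-1, 184 to 189 CPM in untreated damt-1, 306 to 373 CPM in treated wild type and 268 to 282 CPM in untreated wild type. The 3 listed of 4 glia markers summed to 522 to 603, 595 to 611, 360 to 423 and 396 to 409 CPM in these groups in the same order. Of these 3, only ptr-10 differed between the untreated groups (218 CPM in damt-1, 25.8 CPM in wild type), and daf-6 and fig-1 did not pass the test. From untreated to F1 in wild type, ptr-10 rose (log2 2.19) while daf-6 and fig-1 fell (log2 -0.56 and -0.30). In the same order of groups, the 4 listed of 5 body wall muscle markers summed to 4735 to 5191, 4771 to 4900, 4094 to 4353 and 4240 to 4519 CPM. The 4 listed of 7 neuron markers summed to 893 to 960, 878 to 913, 735 to 889 and 960 to 975 CPM. The 6 intestine markers summed to 1411 to 1621 CPM in all libraries, though single ones moved in opposite directions. Wild type F1 against untreated had ges-1 higher (log2 0.45) and elt-2 and ifb-2 lower (log2 -0.23 and -1.28). There act-5, mtl-2 and spl-1 did not pass the test. The part of these tissues in the col differences was not tested. The time within L4 at which each group was collected is not given, and since many col genes pulse within that stage, group and time cannot be told apart.

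The authors' deposited comparison tables, read for their calls alone, hold 107, 108 and 107 members in damt-1 P0, F1 and F2 against untreated. Of these, 54, 54 and 50 were higher and 2, 1 and 0 lower at DESeq2 adjusted p under 0.05. For wild type, the authors' deposited tables hold only fold changes above 0. They list 31, 28 and 30 members in P0, F1 and F2, with 12, 14 and 16 called. The counts of both genotypes stand without a share of all transcripts.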

How the data were processed

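RNA of 8 groups was sequenced with 2 libraries each. The authors deposited 6 tables of raw count values by RefSeq transcript, all whole numbers, each with 2 treated and 2 untreated libraries. The deposited log2 fold changes and the adjusted p-value of each transcript come from DESeq2, per the file headers, and were used only for counts of calls. The submitters' processing notes name build ce10 and the tools DESeq2 1.20.0, R 3.5.0, HTSeq 0.9.1, SAMtools 1.3.1, HISAT2 2.0.5 and Trimmomatic 0.35 with no role for each. In the comparison tables, 24 columns of values by sample were left aside. Whether duplicate or multiply mapped reads were removed is not given in the sources used here.

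Counts were fitted in R 4.3.3 with edgeR 4.0.16 (filterByExpr with a minimum count of 10, TMM factors, robust quasi-likelihood, 1 mean per group over 16 libraries). Adjusted p-values are Benjamini-Hochberg values over all transcripts tested in a comparison, called under 0.05. CPM uses TMM-scaled totals. Transcripts absent from a table were set to 0 in the fit and left untested there. The smallest sum over the 4 libraries of a table is 11 counts. Where a group held 1 to 3 counts, ratios carry exact 95% counting intervals (counting error only), made with scipy 1.17.1. Names, neighbours and lengths came from WBcel235, which is not the authors' build, so no coordinates are given. Figures were drawn with matplotlib 3.10.9. The procedure was tested on simulated counts with the same dispersion for every transcript, above the common one fitted here. That test does not cover the most densely counted members.

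Members and gene lists were chosen with earlier results of these data known. Named genes are col-10, col-12, col-13, col-41, col-96, col-99, col-120, col-141, col-142, col-143 and col-176 where tested (col-99 was not analysed here), and in each comparison up to 4 rises and 4 falls past the threshold with a group mean of at least 10 CPM and no overlap (overlap was not asked of interactions). To these were added the 4 highest and 4 lowest per length, up to 4 for each pattern over all 6 treated comparisons, and up to 4 per list by adjusted p. Replicate numbers were checked for pairing: deviations of same-numbered libraries correlated at -0.058 to 0.036 in 28 group pairs, so the fit has no block. Alternatives were DESeq2 1.42.0, RLE factors, library size only, TMM without collagens, TMM from transcripts under 0.2 counts per nucleotide, no filter, 10 CPM in 2 libraries, a replicate block, only the groups compared, a log2 limit of 1, and each library left out.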

Additional observations from a re-analysis of the deposited data

Results flagged for a closer look

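The antimycin response differed between the genotypes by a test of the difference itself (edgeR interaction term, damt-1 log2 difference minus wild type log2 difference, adjusted p under 0.05) for the named members below. In P0 the difference was 6.36 for col-152, 6.16 for col-88, 6.13 for col-140 and 6.02 for col-139, and on the other side -2.56 for col-176, -2.14 for col-128, -1.92 for col-142 and -1.47 for col-103. In F1 it was 7.32 for col-152, 6.60 for col-81, 6.60 for col-140 and 6.56 for col-139, and -3.98 for col-158, -3.64 for col-128, -3.03 for col-176 and -2.86 for col-142. In F2 it was 7.07 for col-152, 6.58 for col-81, 6.57 for col-139 and 6.57 for col-140, and -3.58 for col-128, -3.33 for col-158, -3.06 for col-176 and -2.90 for col-142. The values of col-152 depend on the prior count, since untreated damt-1 held 1 count of it. The 3 generations share the untreated libraries of each genotype.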

How the results depend on the processing

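With a limit of 1 on the log2 scale, the members risen were 35, 37 and 39 in damt-1 P0, F1 and F2 (0 fallen in each), and the members fallen were 1, 17 and 19 in wild type P0, F1 and F2. Under that limit 9 were higher and 45 lower in untreated damt-1 than in wild type, 5 and 5 in P0, 5 and 4 in F1, 6 and 5 in F2, the interaction held for 46 in P0 and 59 in F1, and wild type F1 and F2 differed from P0 for 6 and 5. With DESeq2, 21 fell in wild type P0, 2, 1 and 0 in damt-1 P0, F1 and F2, and 25 were higher in damt-1 F1 than in wild type F1. With scaling on transcripts under 0.2 counts per nucleotide, 16 were higher in damt-1 P0 than in wild type P0. In F1, 68 were higher and 7 lower, and in F2, 69 were higher and 8 lower. Under the log2 limit, 3.3%, 3.06% and 3.18% of all transcripts rose in damt-1 P0, F1 and F2, and 8.3% were lower in untreated damt-1. The other counts in this paragraph have no share of all transcripts beside them and are not read as results about the family. With 1 library left out, members fallen in damt-1 P0 ran from 1 to 4, members higher in damt-1 F1 than wild type F1 from 23 to 58 and lower from 11 to 21, and members higher in damt-1 F2 than wild type F2 from 22 to 51. The other counts kept within 1.5 times.

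Of 231 named values, 201 passed the threshold. Of these 167 held under every alternative counted, 34 missed the threshold under at least 1, and 0 turned sign. The log2 limit of 1 is not among those counted, since every value smaller than 1 in size misses it. Values near 0 that had not passed did turn sign. With the scaling on sparsely counted transcripts col-120 became 0.16 in damt-1 F1 and 0.13 in F2 against wild type, col-96 became 0.11 in P0 and 0.18 in F2, col-13 became 0.02 in P0, and col-10 became 0.06 between the untreated groups. Wild type P0 against untreated then gave -0.00 for col-141, and wild type F2 against untreated -0.12 for col-10. With library size only, col-10 became -0.01 in damt-1 P0 against wild type P0 and -0.02 in wild type F2 against untreated, where fitting only the groups compared also gave -0.02. Leaving out 1 library gave ranges of -0.03 to 1.13, -0.34 to 0.33 and -0.13 to 0.49 for col-141 in damt-1 P0, F1 and F2 against untreated. Against wild type, col-96 ranged from -0.61 to 0.44 in P0, -0.69 to 0.62 in F1 and -1.13 to 0.54 in F2, col-120 from -0.15 to 0.03 in F1, and col-10 from -0.02 to 0.04 in P0 and -0.07 to 0.02 in untreated worms. In wild type against untreated, col-10 ranged from -0.01 to 0.08 in P0 and -0.06 to 0.03 in F2, col-12 from -0.23 to 0.03 in P0 and col-41 from -0.27 to 0.01 in P0. The cause was not tested.

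The replicate numbers do not pair the libraries. With the replicate block, 64, 63 and 65 members rose in damt-1 P0, F1 and F2, 36, 74 and 69 fell in wild type P0, F1 and F2, and 69 were lower in untreated damt-1 than in untreated wild type. The block moved no count by over 1.5 times. Where a group held 1 to 3 counts, as for col-152 and col-96 in untreated damt-1, the fitted fold depends on the prior count and the counting interval of the ratio is wide. With 2 libraries per group, each estimate of spread leans on that shared over all transcripts.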
